A study of Mus musculus with 60 samples.

Results

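The genes described here are 40 that cells switch on to divide, of the 54532 genes in the count table. They were taken as the rows whose symbol is on a list of cell division genes, and all 40 passed the filter on low counts that left 18562 genes for testing. Of these, 16 act when DNA is licensed and copied and are called S phase genes below, and 24 act when chromosomes are condensed, aligned and pulled apart and are called mitotic genes. RNA was measured in 60 libraries from 15 tissues of female C57BL6/J mice aged 6 weeks, with 4 replicates of each tissue. Every animal had been anaesthetised and its vessels flushed through the heart with PBS and EDTA, and the labels name no treatment, transgene or mutant allele. The blood-forming and lymphoid tissues were bone marrow, thymus, spleen, inguinal and mesenteric lymph node and blood. The others were small intestine, colon, skin, the female reproductive tract, brain, heart, kidney, liver and lung. The sample titles of blood read PBMC and the series text gives mononuclear cells, while another sample label gives blood. Whether whole blood or its mononuclear cells were sequenced could not be settled. No label ties a library to an animal, so p-values measure the spread between these libraries.

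A cell that commits to division raises cyclin E and E2F activity, loads the MCM helicase onto replication origins with the help of Cdc6 and Cdt1, and then makes nucleotides and copies its DNA. Cyclin A and cyclin B with Cdk1 then drive it into mitosis, where kinetochores and the spindle checkpoint hold the chromosomes until Cdc20 and Ube2c, working with the anaphase-promoting complex, start the destruction of cyclins and let the cell divide. Most cells of an adult organ have left the cycle and carry little of this RNA, while blood-forming marrow, the thymus and the crypts of the gut are known as sites of constant division. Genes of the first step are known to be controlled by E2F factors, and genes of the second by the DREAM and MuvB complexes with Foxm1 through the paired CCAAT box and cell cycle genes homology region.

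The stretches of DNA before the start sites of 6 of these genes are shown because the elements named above differ between the groups. They are the 3 S phase and 3 mitotic genes with the highest mean log2(CPM + 1) over the 60 libraries among those with a word in the bases printed, taken from RefSeq on build GRCm38.p6. Each ends at the base before the start site, or earlier where an annotated exon begins. Capitals mark exact words on either strand: CCAAT for the CCAAT box; TTTGAA or TTCGAA for the cell cycle genes homology region; and TTTCCCGC, TTTCGCGC, TTTGCCGC or TTTGGCGC for E2F. The stretch shown for Mcm7 lies at chr5:138171267-138171516 on the minus strand, Mcm6 at chr1:128359706-128359955 on the minus strand and Rrm1 at chr7:102441445-102441694 on the plus strand. That for Mki67 lies at chr7:135716380-135716629 and Top2a at chr11:99024190-99024439, both on the minus strand, and Ube2c at chr2:164769679-164769897 on the plus strand.
Mcm7: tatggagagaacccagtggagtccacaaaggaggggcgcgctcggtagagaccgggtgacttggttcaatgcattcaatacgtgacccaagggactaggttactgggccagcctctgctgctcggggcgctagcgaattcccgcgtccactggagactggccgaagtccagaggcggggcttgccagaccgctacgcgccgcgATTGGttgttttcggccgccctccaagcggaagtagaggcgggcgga
Mcm6: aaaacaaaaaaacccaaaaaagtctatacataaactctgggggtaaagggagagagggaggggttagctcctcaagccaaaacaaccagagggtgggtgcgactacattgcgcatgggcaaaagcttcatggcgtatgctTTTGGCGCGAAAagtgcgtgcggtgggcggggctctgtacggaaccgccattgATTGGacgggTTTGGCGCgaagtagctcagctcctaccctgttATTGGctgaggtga
Rrm1: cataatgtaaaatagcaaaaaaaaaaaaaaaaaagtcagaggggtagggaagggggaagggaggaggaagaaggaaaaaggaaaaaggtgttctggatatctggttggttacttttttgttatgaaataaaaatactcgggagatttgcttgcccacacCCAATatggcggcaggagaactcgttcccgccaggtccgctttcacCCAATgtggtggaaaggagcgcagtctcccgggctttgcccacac
Mki67: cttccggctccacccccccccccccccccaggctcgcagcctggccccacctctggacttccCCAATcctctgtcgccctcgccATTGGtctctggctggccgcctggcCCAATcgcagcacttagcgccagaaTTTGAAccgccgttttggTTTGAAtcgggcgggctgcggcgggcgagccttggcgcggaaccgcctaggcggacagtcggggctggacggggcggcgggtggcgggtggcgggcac
Top2a: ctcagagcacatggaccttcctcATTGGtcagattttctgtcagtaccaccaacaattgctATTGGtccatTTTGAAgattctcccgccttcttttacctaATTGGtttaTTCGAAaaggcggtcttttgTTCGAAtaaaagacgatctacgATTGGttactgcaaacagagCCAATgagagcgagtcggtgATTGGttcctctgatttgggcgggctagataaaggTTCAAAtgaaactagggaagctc
Ube2c: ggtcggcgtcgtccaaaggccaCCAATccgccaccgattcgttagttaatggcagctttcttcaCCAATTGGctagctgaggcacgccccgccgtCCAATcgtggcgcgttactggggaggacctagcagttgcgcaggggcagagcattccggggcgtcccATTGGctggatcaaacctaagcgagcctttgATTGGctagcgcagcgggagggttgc

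Mcm6, a subunit of the MCM helicase, held 3 E2F words, of which 2 overlap, and 2 CCAAT words. Top2a, which untangles sister chromatids, held 6 CCAAT and 4 homology region words, and Mki67, the coat protein of mitotic chromosomes, held 3 and 2. Ube2c, the ubiquitin-conjugating enzyme of mitotic exit, held 6 CCAAT words, of which 2 overlap. In windows from 250 bases before to 50 after the start site, which were at hand for 33 of the 40 genes, a homology region word stood in 15 of 19 mitotic genes (78.9%), in 2 of 14 S phase genes (14.3%) and in 19.2% of 32851 promoters. All 15 of those mitotic promoters also held a CCAAT word, a pair found in 7.52% of all promoters. A CCAAT word, with or without the other, stood in 17 mitotic genes (89.5%), 8 S phase genes (57.1%) and 37.4% of all promoters. An E2F word stood in 6 S phase genes (42.9%), in 1 mitotic gene (5.26%) and in 2.26% of all promoters. Mcm7 has 2 such windows, and a gene counts if any of its windows holds the word. The one whose upstream bases are printed holds 1 CCAAT word, while the other, not printed because it begins inside an annotated exon, holds 3 CCAAT, 1 homology region and 2 E2F words. Mcm7 is among the 2 and the 6 S phase genes only through that other window. A match is a description of the letters and not a site shown to be bound, and these windows say nothing of Ccne2, Mcm4, Ccna2, Foxm1, Aurkb, Kif20a and Tpx2, for which none was at hand.

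Libraries held 353605 to 5211133 counts, with a median of 2649668, and the 40 genes took between 0.00760% of a liver library and 0.876% of a bone marrow library. Counts of the 40 genes summed to 208 to 294 in the liver libraries, 239 to 416 in lung, 741 to 1230 in colon and 20326 to 23925 in bone marrow, so a level of a few CPM (read counts scaled to a common library size) rests on few reads in the quiet organs. Colon and lung differed from all other tissues in library make-up: mitochondrial ribosomal RNA took 0.233% to 0.928% of their counts against 4.33% to 40.6% elsewhere, and Malat1, a nuclear RNA, took 0.0151% to 0.0282% where other tissues had 0.131% to 1.65%. The defining markers of the tissues were in place. All 8 thymocyte genes were highest in thymus, all 7 erythroblast and all 6 neutrophil precursor genes in bone marrow, 5 of 6 enterocyte genes in small intestine, 5 of 6 colonocyte genes in colon, 5 of 6 basal keratinocyte genes in skin, and all 7 genes of uterus and oviduct in the female reproductive tract. Hepatocyte, proximal tubule, neuron and lung epithelium genes were each highest in their organ for 6 of 6. In blood all 5 platelet genes measured were highest there. The replicate libraries that stood apart from their tissue were female reproductive tract 3 and 4, brain 3 and liver 4, and results that changed without them are named below. These are mixtures of cells, so fewer dividing cells and less RNA per dividing cell cannot be told apart in any value below.

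Bone marrow had the highest mean CPM for all 40 genes, and thymus came second for 38 of them. Small intestine was second for Tk1 and Melk and in place 3 for 26. Levels in the remaining tissues were small fractions of the marrow level: the median mitotic gene reached 55.2% of its marrow level in thymus, 23.5% in small intestine and 15.5% in colon, and 0.445% in liver. The lowest mean was in brain for 15 genes, in liver for 13 and in heart for 7.

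**Figure D1:**
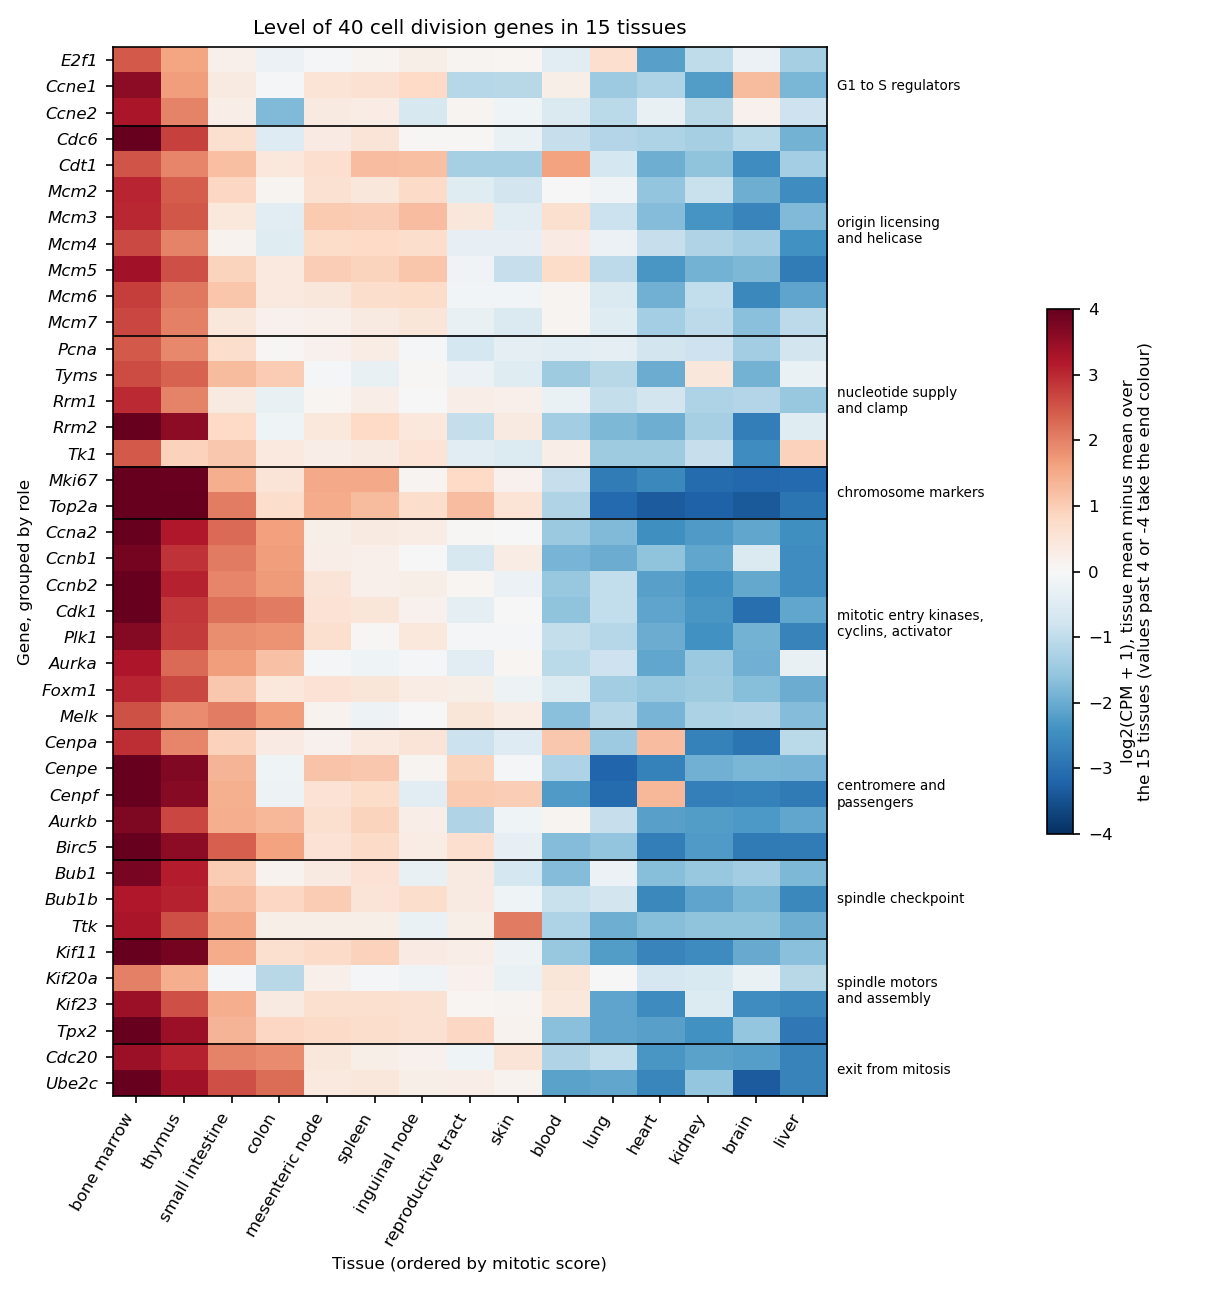
Heat map of the 40 cell division genes (rows grouped by role, S phase genes above mitotic genes) in 15 tissues (columns), where colour gives the mean log2(CPM + 1) of 4 libraries minus the mean of that gene over the tissues, and values past 4 or −4 take the end colour. Bone marrow and thymus are high in every row, small intestine follows, and brain, heart, kidney and liver are low in nearly every row.

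To order the tissues, each library was given an S phase score and a mitotic score, the mean over the genes of log2(CPM + 1) minus the mean of that gene over the 15 tissues. By S phase genes, bone marrow scored 3.03 ± 0.02 (SD, n = 4) and thymus 2.14 ± 0.03, each clear of the next tissue in every library. Small intestine (0.67 ± 0.08), spleen (0.52 ± 0.11), inguinal lymph node (0.48 ± 0.16) and mesenteric lymph node (0.42 ± 0.21) followed with overlapping libraries. Colon (−0.06 ± 0.43), blood (−0.08 ± 0.06), the female reproductive tract (−0.32 ± 0.38) and skin (−0.43 ± 0.08) also overlapped as neighbours. Skin stood above lung (−0.80 ± 0.12) and lung above kidney (−1.22 ± 0.11), while kidney, liver (−1.37 ± 0.25), heart (−1.47 ± 0.10) and brain (−1.50 ± 0.11) overlapped at the bottom. With library totals alone in place of TMM, the trimmed mean scaling used throughout, small intestine took place 6 by S phase genes and spleen place 3.

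By mitotic genes, bone marrow (3.84 ± 0.03), thymus (3.0 ± 0.04) and small intestine (1.61 ± 0.20) each stood clear of the next tissue. Colon followed at 0.93 ± 0.30, ahead of mesenteric lymph node (0.58 ± 0.40), spleen (0.51 ± 0.13), inguinal lymph node (0.20 ± 0.26), the female reproductive tract (0.18 ± 0.42) and skin (0.10 ± 0.21), although neighbours in that run overlapped. Skin stood above blood (−1.10 ± 0.51) in every library, with the lowest skin library at −0.13 and the highest blood library at −0.38. Blood, lung (−1.62 ± 0.28), heart (−1.90 ± 0.17), kidney (−2.04 ± 0.16), brain (−2.09 ± 0.22) and liver (−2.20 ± 0.20) overlapped from one to the next. The order is a description, with no test, since the genes were chosen with results of these data known.

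**Figure D2:**
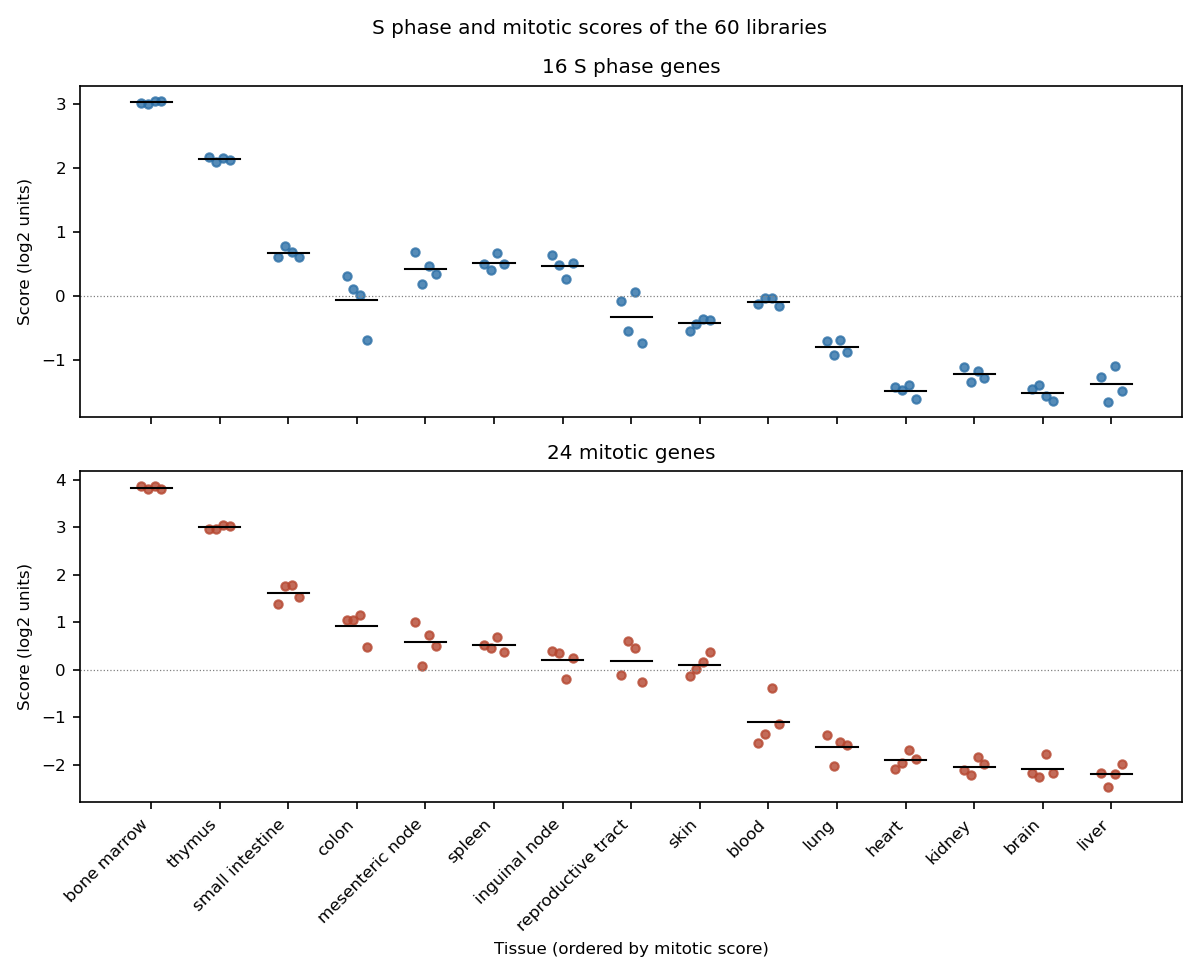
S phase and mitotic scores (mean difference of log2(CPM + 1) from the mean over tissues) of each of the 60 libraries, by tissue, with a line at the mean of 4. Bone marrow and thymus libraries are tight and clear of all others, while the colon and female reproductive tract libraries are spread widely.

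The S phase and mitotic orders did not match everywhere. Mitotic genes spread further between tissues than S phase genes, so the difference between the scores (S phase minus mitotic) was positive in most quiet tissues and negative in most dividing ones. Blood had the largest positive mean difference, 1.02 ± 0.49 with libraries from 0.34 to 1.41, and the median S phase gene stood at 13.2% of its marrow level there while the median mitotic gene stood at 1.74%. All libraries of liver (0.83 ± 0.25), lung (0.82 ± 0.19) and kidney (0.82 ± 0.15) lay within that range of the blood libraries. Colon had the largest negative difference at −0.99 ± 0.20, next to small intestine at −0.94 ± 0.14, thymus at −0.86 ± 0.05 and bone marrow at −0.81 ± 0.03. The lymph nodes and spleen lay near 0, at 0.27 ± 0.13 (inguinal), −0.15 ± 0.20 (mesenteric) and 0.01 ± 0.07 (spleen).

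**Figure D3:**
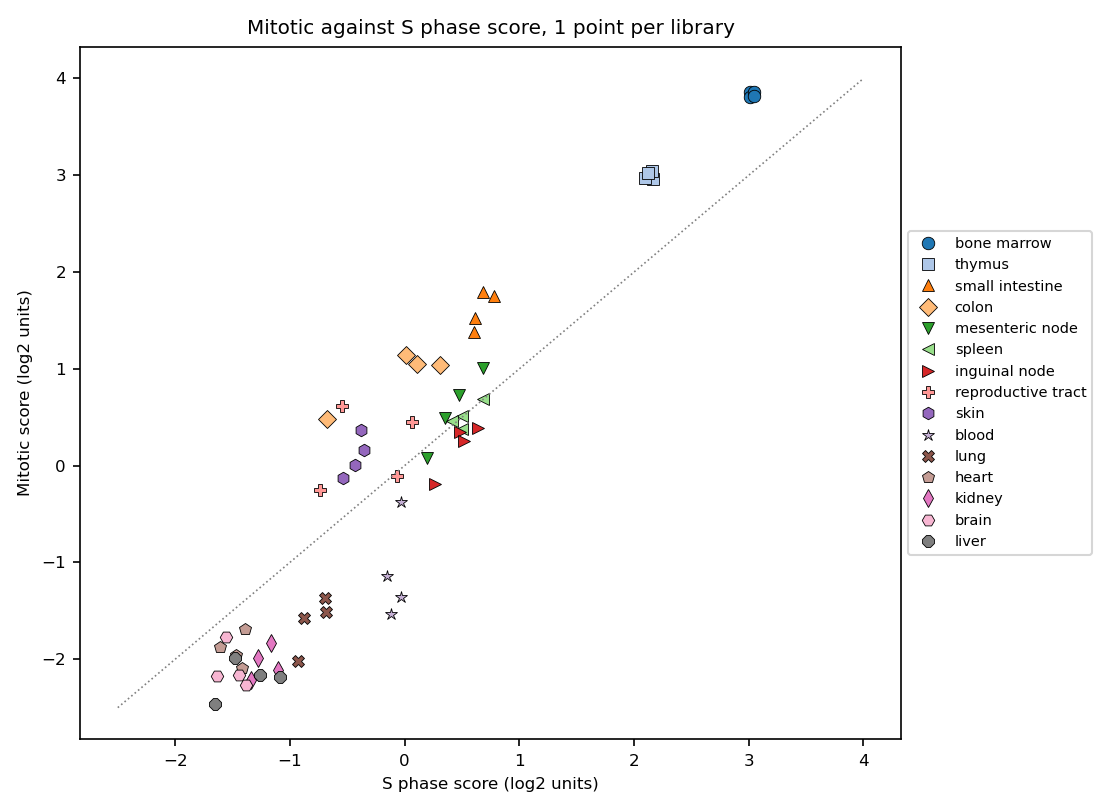
S phase score (x axis) against mitotic score (y axis), both as mean differences of log2(CPM + 1), with 1 point for each of 60 libraries marked by tissue and a dotted line where the scores are equal. Blood libraries fall to the S phase side and colon and small intestine libraries to the mitotic side of the other tissues of like rank.

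Each tissue was then compared gene by gene with the mean of the logs of the other 14 tissues, each given equal weight (edgeR quasi-likelihood F test on counts). A gene was called where its adjusted p lay under 0.05 and its log2 fold change was larger than 1 in size. These 15 comparisons share libraries, so a gene that is very high in marrow and thymus is pulled toward lower values in the rest. The mean of logs also lies below the mean of levels, so a tissue can be called higher while its CPM is below the plain average of the others. Fold changes below are on that log2 scale with their SE, and the share of all tested genes called in the same direction is given as background beside each first count.

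In bone marrow all 40 genes rose, where 17.6% of all genes tested did, and in 36 of them the 4 marrow libraries were above all 56 others. The exceptions were Melk, Bub1b, Kif20a and Cdc20, where a library of thymus or small intestine reached the marrow range. In thymus all 40 rose as well (background 18.9%). No member was lower in either tissue by edgeR, even at an unadjusted p below 0.05 (0 members), or by DESeq2 (0 members).

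Among the regulators of entry into S phase, E2f1, the transcription factor that switches on replication genes, stood at 42.5, 40.6, 38.1 and 40.2 CPM in bone marrow and 22.7, 16.8, 23.3 and 22.5 in thymus. In the other 13 tissues it stood at 0 to 15.2 CPM, with heart lowest, so only the marrow and thymus groups stood clear. Ccne1, cyclin E1, stood at 53.2, 76, 76.3 and 70.3 CPM in marrow and at 16.8, 16.1, 20.7 and 15.6 in thymus, and its paralogue Ccne2 at 59.8, 57, 59.5 and 69 and 20.1, 20.7, 29 and 28.4. All 3 regulators were lower in thymus than in marrow in every library.

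All 8 genes of origin licensing and the helicase rose in both bone marrow and thymus, and 4 of them rose in small intestine. Mcm7, a helicase subunit, stood at 220.2, 218, 237 and 238 CPM in bone marrow, 145, 138, 157 and 139 in thymus and 52.6, 46.2, 53.6 and 43.4 in small intestine. In brain, liver and heart it stood at 8.88 to 24.6 CPM, and no library of the 60 was without it. Cdc6, which loads the helicase, stood at 73.4, 67.8, 68.4 and 73.2 CPM in marrow, 35.4, 24.5, 25.4 and 23.4 in thymus and 0 to 8.31 everywhere else. In liver 1 read of Cdc6 was counted over the 4 libraries.

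Of the genes that supply nucleotides and clamp the polymerase, Rrm1, the large subunit of ribonucleotide reductase, stood at 253, 234, 264 and 267 CPM in marrow and 116, 131, 124 and 143 in thymus. In all other tissues Rrm1 ranged from 8.07 to 74.8 CPM, with the top value in library 3 of the female reproductive tract, the shallowest of the 60. Its partner Rrm2, the small subunit, spread far more, from 292, 297, 285 and 255 CPM in marrow and 156, 148, 144 and 154 in thymus to 0.28, 0.853, 0.943 and 1.65 in brain. Pcna, the sliding clamp, stood at 154, 174, 189.6 and 176 CPM in marrow and still at 21.2, 20.0, 17.5 and 14.6 in heart. It is 1 of the 5 members that missed the call in heart (log2 fold change −0.81 ± 0.17) and in kidney (−0.94 ± 0.15).

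Both chromosome markers of cycling cells had the widest range of the members between their highest and lowest tissue means on the log2(CPM + 1) scale. Mki67 stood at 1784, 1837, 1817 and 1786 CPM in bone marrow (log2 fold change 6.11 ± 0.11, adjusted p = 1.0e-48) and at 521, 554, 635 and 585 in thymus (4.34 ± 0.12, adjusted p = 1.1e-38). In small intestine it stood at 93.7, 126, 102 and 78.2 CPM, in mesenteric lymph node at 147, 68, 123 and 96.5 and in spleen at 111, 96.7, 119.9 and 94.1, and in brain, kidney, liver and heart at 1.45 to 6.76. No library of those 4 quiet organs reached those of blood, at 15.3 to 28.7 CPM. Top2a stood at 1005, 1006, 1036 and 1027 CPM in marrow (log2 fold change 5.22 ± 0.12, adjusted p = 1.5e-41) and at 699.5, 715, 769 and 795 in thymus (4.74 ± 0.13, adjusted p = 1.2e-38).

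All 8 kinases, cyclins and activators of mitotic entry rose in bone marrow, thymus, small intestine and colon. Ccna2, cyclin A2, stood at 263, 275, 287 and 273 CPM in marrow, 110.3, 131, 117 and 124 in thymus, 60.5, 71, 69.4 and 52.7 in small intestine and 38.1, 44.3, 52.9 and 30.6 in colon. In spleen and both lymph nodes it stood at 8.73 to 20.8 CPM, below every colon library, and in liver, kidney, heart and brain at 0 to 3.13. Its profile over the 15 tissues was the closest of all to the mean of the other mitotic genes (Pearson r = 0.991), followed by Foxm1, the transcription factor of mitotic genes (0.990). These correlations are over 15 tissue means that share libraries and depth and are given as a description.

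Of the centromere and passenger genes, Birc5, or survivin, stood at 309.7, 324, 320.1 and 335 CPM in marrow, 159, 152, 170.2 and 233 in thymus and 79.8, 81.1, 77.4 and 73.9 in small intestine, and at 0.725 to 2.99 in brain, heart, kidney and liver. Among the spindle checkpoint kinases, Bub1b, which encodes BubR1, stood at 87.4, 82.9, 85.2 and 81.3 CPM in marrow and 73.7, 71.7, 97.5 and 71.1 in thymus, where library 3 passed every marrow library. The motor Kif11, which pushes spindle poles apart, stood at 216, 211, 191 and 206 CPM in marrow (log2 fold change 5.27 ± 0.14, adjusted p = 1.1e-39) and at 102, 121, 120.3 and 152 in thymus (4.48 ± 0.15). Kif23, which bundles the central spindle for cytokinesis, stood at 158, 139, 162 and 160.4 CPM in marrow, 21.3, 23.1, 12.9 and 19.1 in blood and 9.55, 7.7, 10.8 and 8.23 in kidney. For exit from mitosis, Ube2c stood at 453, 477, 495 and 446 CPM in marrow (log2 fold change 5.23 ± 0.11, adjusted p = 1.1e-43), 193, 194, 167 and 180.2 in thymus and 96.5, 108, 120.2 and 100.5 in small intestine.

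Thymus and bone marrow, the organs where T cells and other blood cells are made, were compared directly on their 8 libraries. In 37 of 40 genes all thymus libraries lay below all marrow libraries, and 18 genes were called lower in thymus, where 16.3% of 12183 genes were. The largest falls were in Ccne1 (−2.09 ± 0.14, adjusted p = 6.7e-11), Mki67 (−1.77 ± 0.09, adjusted p = 5.1e-13), Tk1 (−1.65 ± 0.13, adjusted p = 3.4e-10) and Cdc6 (−1.48 ± 0.13, adjusted p = 2.6e-09). Tk1, thymidine kinase of the salvage pathway, stood at 103, 101, 112 and 96.5 CPM in marrow against 39.5, 43.2, 33.2 and 25.2 in thymus. The 3 genes whose libraries overlapped were Bub1b (−0.21 ± 0.11), Cdc20 (−0.46 ± 0.11) and Kif20a (−0.80 ± 0.29). By role, all 3 regulators of S phase entry and 4 of 5 centromere and passenger genes were called, while of the 8 licensing and helicase genes Cdc6 alone was.

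The size of this difference depends on the scaling. With library totals alone in place of TMM, the median of all genes moved from 0.03 to 0.62 in this pair, 3 of the 40 genes were still called lower (39 under TMM without the size threshold) and the median of the 40 was −0.36 in place of −0.95. Of all 12183 genes 1259 were called lower with library totals alone. The share without the size threshold is not given here. The organs also differ in the dividing cells they hold: thymocyte genes summed to 4658 to 5717 CPM in thymus and 147 to 163 in marrow, where Ptcra had no read. Erythroblast genes summed to 3445 to 3587 CPM in marrow and 1.94 to 7.37 in thymus, and neutrophil precursor genes to 2882 to 3251 and 2.88 to 6.05. The part of these cell types in the difference was not tested.

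Small intestine was the third tissue in both orders. There 29 of the 40 genes rose (background 19.9%), 23 of the 24 mitotic genes but 6 of the 16 S phase genes, which were Cdc6, Cdt1, Mcm5, Mcm6, Tyms and Tk1. The largest rises were in Ube2c at 96.5, 108, 120.2 and 100.5 CPM (log2 fold change 2.94 ± 0.15, adjusted p = 4.7e-26) and in Melk, a kinase of proliferating and progenitor cells, at 11.5, 19.2, 23.4 and 15.2 CPM (2.88 ± 0.22, adjusted p = 8.0e-18). Birc5 stood at 79.8, 81.1, 77.4 and 73.9 CPM (2.77 ± 0.17, adjusted p = 1.4e-21) and the checkpoint kinase Ttk at 8.77, 13.5, 8.28 and 10.9 CPM (2.70 ± 0.33, adjusted p = 6.8e-10). The third of those Melk values lay above 2 of the 4 marrow libraries, at 27.2, 25.5, 22.8 and 22.4 CPM. The only mitotic gene not called was Kif20a, at 0.462, 0.436, 1.08 and 3.26 CPM.

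In colon 17 genes rose (background 17.7%) and 1 fell (background 14.4%), and the rises again lay mostly among mitotic genes. The difference between the scores, −0.99 ± 0.20, overlapped that of small intestine, −0.94 ± 0.14. All 8 genes of mitotic entry and both of mitotic exit rose, with 16 of 24 mitotic genes in all, whereas of the 16 S phase genes Tyms alone rose and Ccne2 fell. Ube2c stood at 81.4, 90.6, 90.7 and 71.7 CPM (log2 fold change 2.57 ± 0.18, adjusted p = 1.7e-19), Melk at 19.5, 13.4, 14.3 and 6.69 (2.49 ± 0.29, adjusted p = 4.7e-11) and Cdk1, the master kinase of mitosis, at 48.3, 42.2, 47 and 33.5 (2.48 ± 0.21, adjusted p = 6.7e-16). Library 4 of colon was the lowest for all of these. Tyms, thymidylate synthase, stood at 39, 45.3, 31.9 and 25.8 CPM in colon and 40.6, 52.7, 47.5 and 30.4 in small intestine, and Ccne2 at 0.848, 1.03, 2.52 and 0 in colon (log2 fold change −2.37 ± 0.54, adjusted p = 1.9e-04). The 8 licensing and helicase genes had a median log2 fold change of 0.20 in colon and the 2 chromosome markers one of 0.73, beside 2.12 for the 8 genes of mitotic entry.

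Compared directly, small intestine exceeded colon in 3 of 36 genes tested (background 13.5%), the long centromere genes Cenpf (1.57 ± 0.21, adjusted p = 5.2e-06) and Cenpe (1.43 ± 0.22, adjusted p = 3.1e-05) and Top2a (1.21 ± 0.14, adjusted p = 1.1e-06). Without replicate 1 the count was 5, where 1490 of 10973 genes were higher. In 16 of the 36 all small intestine libraries lay above all colon libraries, 7 of them S phase genes. Cenpf, a kinetochore protein, stood at 37.4, 53.6, 54 and 38.6 CPM in small intestine and 15.3, 13.4, 15.1 and 12.4 in colon, and Top2a at 125, 160.4, 164 and 149.9 and 55.9, 62.8, 68.8 and 48.7. With library totals alone the median of all genes moved from −0.03 to −0.44 and Top2a was no longer called, at 0.80. By contrast Ube2c, Cdk1 and Cdc20 differed by 0.21 ± 0.13, −0.01 ± 0.15 and −0.05 ± 0.17, none of them called. Crypt stem cell genes summed to 836 to 1301 CPM in small intestine and 160 to 211 in colon, and the colon libraries also have the unlike make-up given above. The part of either in these differences was not tested.

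The secondary lymphoid organs held middle places. In inguinal lymph node 4 of 40 genes rose, a share below the background of 17.1%, and all 4 belong to S phase: Mcm3 at 44.8, 49.5, 44.9 and 48.8 CPM (log2 fold change 1.41 ± 0.11, adjusted p = 1.3e-16), Cdt1 (1.36 ± 0.15), Mcm5 (1.28 ± 0.11) and Ccne1 (1.19 ± 0.19). None of the 24 mitotic genes was called there by edgeR or by DESeq2, although 14 were higher at an unadjusted p below 0.05. Without replicate 3 of every tissue 7 genes rose in the inguinal node, where 2997 of 18617 genes did. Without the size threshold 24 genes were called higher in the inguinal node and 31 in each of mesenteric node and spleen. The share of all genes called without that threshold is not given here. In mesenteric lymph node 14 rose (background 17.2%), 12 of them mitotic, led by Mki67 (1.77 ± 0.15, adjusted p = 9.0e-16), Top2a (1.72 ± 0.17), Cenpe, the kinetochore motor (1.48 ± 0.16), and Bub1b (1.31 ± 0.15). In spleen 12 rose (background 17.8%), 9 of them mitotic, led by Mki67 (1.72 ± 0.15, adjusted p = 2.8e-15), Top2a (1.44 ± 0.17), Cdt1 (1.39 ± 0.15) and Aurkb, the passenger kinase (1.35 ± 0.25). Of the 8 licensing and helicase genes 3 were called in the inguinal node, 2 in the mesenteric node and 3 in spleen, and whether the roles called differ between the organs was not tested. The counts called in each organ move with the scaling: with library totals alone 14, 26 and 22 of the 40 rose, with the median of all genes at 0.42, 0.38 and 0.35 in place of 0.05, 0.02 and −0.03. Under that scaling 4835, 4625 and 4865 of all 18562 genes rose.

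Mesenteric lymph node exceeded inguinal lymph node in 4 of 39 genes tested (background 5.44%). Mki67 stood at 147, 68, 123 and 96.5 CPM in the mesenteric node and 45.6, 38.3, 33.2 and 39.7 in the inguinal node (1.56 ± 0.19, adjusted p = 3.6e-04). Ccne2 stood at 5.6, 6.91, 8.52 and 8.21 against 3.98, 2.54, 2.73 and 3.37 CPM (1.29 ± 0.25, adjusted p = 0.0031) and Cenpf at 31.7, 18.2, 27.2 and 25.9 against 13.3, 13.5, 8.93 and 11.5 (1.22 ± 0.19, adjusted p = 0.001). Cenpe was called too (1.23 ± 0.24, adjusted p = 0.0035), but library 2 of the mesenteric node at 20.7 CPM lay within the inguinal range of 12.4 to 21.4, and without library 1 of both nodes the change was 0.97 and was not called. S phase genes other than Ccne2 did not differ by a called amount, with a median of −0.03 over the 16.

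The same inguinal libraries served the comparison with spleen, where 5 of 39 genes were higher in spleen (background 6.60%). These were Mki67 at 111, 96.7, 119.9 and 94.1 CPM (1.50 ± 0.11, adjusted p = 2.3e-07), Cenpf at 26, 29.3, 31.6 and 24.8 (1.30 ± 0.15, adjusted p = 1.6e-05), Ccne2 at 5.26, 6.36, 11 and 6.28 (1.26 ± 0.29, adjusted p = 0.0031), Bub1 at 5.88, 4.77, 6.93 and 2.99 (1.19 ± 0.34, adjusted p = 0.012) and Cenpe at 39.6, 31.5, 29.5 and 34.7 (1.06 ± 0.16). Spleen and inguinal libraries did not overlap for Mki67, Cenpf, Ccne2 and Cenpe. Ccne2 shares exon bases with Ints8 on the other strand, so its reads may hold some of that gene. Without library 3 of each organ, Ccne2 fell to 0.91 and Bub1 to 0.82 and neither was called. Without library 1 of each organ, Bub1, at 1.07, and Cenpe were not called. Each of these left 3 of the 5 called. Germinal centre genes summed to 53.5 to 111 CPM in mesenteric node, 28.3 to 42.5 in inguinal node and 22.3 to 37.5 in spleen, with mesenteric library 2 the lowest there, as it was for Mki67. Plasma cell genes summed to 469 to 615, 191 to 326 and 559 to 898 CPM. The part of these cells in the differences was not tested.

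Length ran with change in these pairs. The 4 genes whose longest coding transcript passes 5000 bases are Cenpf (11130 bases), Mki67 (10061), Cenpe (7910) and Top2a (5221), and they supplied 3 of the 3, 3 of the 4 and 3 of the 5 calls in the gut, lymph node and spleen pairs. Their median log2 fold change against that of the other tested members was 1.32 against 0.40 from colon to small intestine, 1.22 against 0.27 from inguinal to mesenteric node and 1.18 against 0.12 from inguinal node to spleen. Over the members the Spearman correlation of length with change was 0.47, 0.44 and 0.41, and over all genes with a length it was 0.07, 0.24 and 0.29. From the female reproductive tract to skin it was −0.55 over 36 members and −0.10 over all. These are correlations across genes, which are not independent replicates, and whether length has a part in the changes was not tested.

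**Figure D4:**
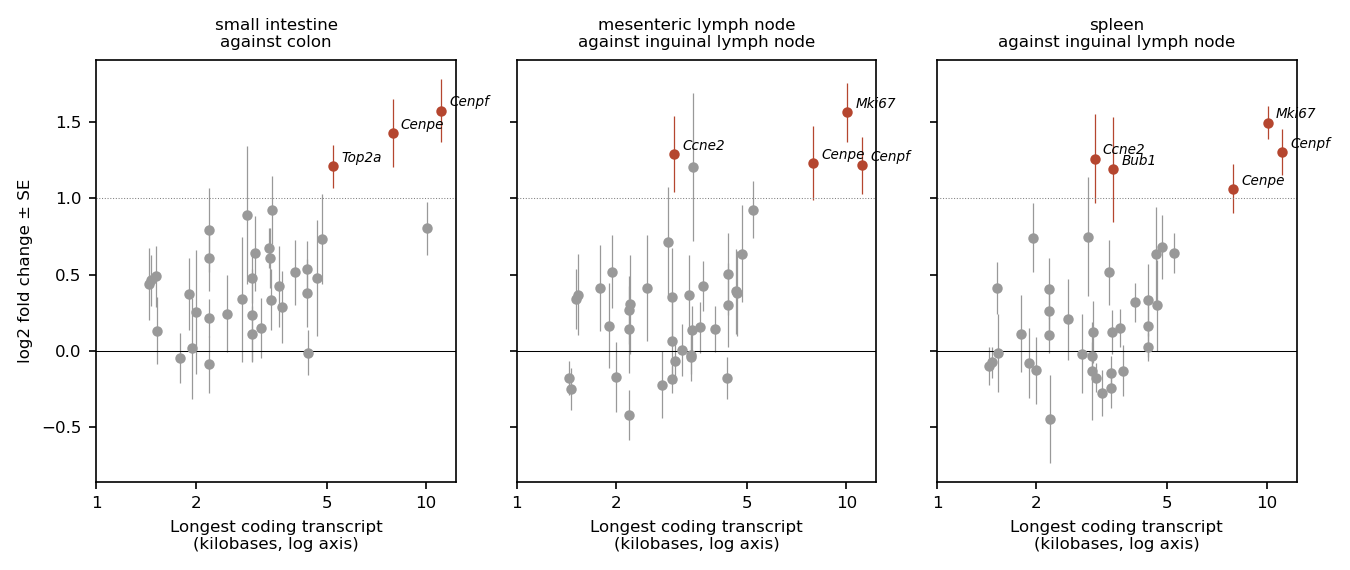
Log2 fold change of each tested member (y axis) against the length of its longest coding transcript (x axis, log scale, in kilobases) in 3 pairs: small intestine against colon, mesenteric against inguinal lymph node and spleen against inguinal lymph node. Called members are red and named, and bars give the SE. The members past 7 kilobases lie high in each panel, as do shorter ones such as Ccne2 in the lymphoid pairs.

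Skin and the female reproductive tract, organs with renewing epithelium, lay near the middle for mitotic genes and lower for S phase genes. In skin 2 genes rose (background 18.4%) and 2 fell (background 6.38%). The largest rise was in Ttk, the kinase that sets the spindle checkpoint, at 14.6, 13.8, 20.8 and 14.2 CPM (log2 fold change 3.38 ± 0.29, adjusted p = 1.1e-14), higher than in any tissue but marrow and thymus by mean. The size of that fold depends on a prior count, since Ttk had no read in liver and lung. All 5450 tested genes without a read in at least 1 tissue were called higher in some tissue, so the call alone does not set Ttk apart. Cenpf rose at 27.6, 29.1, 40.2 and 37.8 CPM (1.20 ± 0.18, adjusted p = 6.7e-08), a call that ended at 0.93 without the colon and lung libraries. Cdt1 fell at 2.3, 4.77, 6.12 and 5.67 CPM (−1.52 ± 0.26, adjusted p = 9.1e-07), as did Ccne1 (−1.35 ± 0.35).

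In the female reproductive tract 4 mitotic genes rose (background 23.1%) and 2 S phase genes fell (background 5.31%). Top2a stood at 48, 86.1, 226 and 53.6 CPM (log2 fold change 1.47 ± 0.20, adjusted p = 3.5e-09) and Cenpf at 27.6, 53.8, 49.8 and 19.6 (1.36 ± 0.18, adjusted p = 5.9e-09), with Cenpe (1.06 ± 0.20) and Tpx2 (1.05 ± 0.25) beside them. Cdt1 fell at 7.27, 3.96, 4.15 and 3.4 CPM (−1.38 ± 0.26) and so did Ccne1 (−1.32 ± 0.36). Library 3, with 353605 counts, was far above the other 3 for Top2a and Mki67, and this tissue had the lowest agreement between its libraries. Granulosa genes, of the dividing follicle cells of the ovary, ranged from 123 to 438 CPM over these libraries and basal keratinocyte genes from 219 to 1900, and their part in the spread was not tested. The counts depend on the settings: 13 rose and 0 fell with library totals alone, where 6051 and 411 of all 18562 genes did. Without library 1 of every tissue 11 rose, where 4385 of 18610 genes did. Cenpf ended at 0.95 without library 2 of every tissue, and Cdt1 and Ccne1 at −0.90 and −0.86 with library totals alone.

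Skin exceeded the female reproductive tract in 2 of 36 genes (background 14.6%) and was below it in 1 (background 14%). Ttk stood at 14.6, 13.8, 20.8 and 14.2 CPM in skin against 1.45, 3.26, 6.23 and 5.11 (2.24 ± 0.39, adjusted p = 7.3e-04) and Rrm2 at 16.1, 8.58, 20.4 and 18 against 6.54, 5.59, 4.15 and 5.96 (1.33 ± 0.32, adjusted p = 0.0057), without overlap of libraries. Mcm3 stood at 13.1, 16.2, 14.3 and 11.8 against 27.1, 18.6, 45.7 and 22.1 (−1.02 ± 0.28, adjusted p = 0.013), a value so close to the threshold that it ended under 6 alternatives, with folds of −0.79 to −1.0, while the count of falls rose to 3 with the replicate number as a block and to 7 with library totals alone. Of all 12733 genes 1684 fell with the block and 2325 with library totals alone.

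In blood 18 genes fell (background 17.8%), 15 of 24 mitotic and 3 of 16 S phase genes, and 3 rose (background 18.1%). The largest mitotic falls were in Melk and Bub1, each with 3 reads over the 4 libraries (adjusted p = 1.7e-05 and 4.3e-04), then in Cenpf at 1.71, 0.888, 6.1 and 3.89 CPM (log2 fold change −2.29 ± 0.32, adjusted p = 6.2e-09) and in the B-type cyclin Ccnb1 at 0, 0.444, 2.87 and 0.778 (−2.06 ± 0.52, adjusted p = 4.7e-04). Library 3 was the highest of the 4 for Mki67, Top2a, Cdk1, Birc5 and Ube2c. The genes that rose were Cdt1 at 46, 37.3, 44.8 and 37.4 CPM (1.81 ± 0.16, adjusted p = 2.9e-15), Cenpa, the centromeric histone H3 variant, at 52.8, 59.5, 62.1 and 61.9 (1.20 ± 0.11, adjusted p = 6.6e-14), and the motor Kif20a at 0.852, 1.77, 3.59 and 2.33 (1.54 ± 0.42, adjusted p = 0.0012). Cdt1 does not share exon bases with its 3′ neighbour Aprt, which lies 1081 bases past its end on the other strand and stood at 70.1 ± 11.4 CPM in blood against 319 in small intestine. Whether reads of Aprt have a part in the Cdt1 level was not tested, and the strand setting of the counting is not given. The size of the Kif20a fold, and so its call, depends on a prior count, since Kif20a had no read in liver and colon. All 5450 tested genes without a read in at least 1 tissue were called higher in some tissue. Kif20a also shares exon bases with Cdc23 on the other strand. The 3 S phase genes that fell were Tyms, Rrm2 and Cdc6, and the licensing and helicase genes had a median of 0.25. The calls of single low genes depend on the libraries included, where each replicate number was left out of every tissue. Melk ended without replicate 2 (−2.43), Bub1 without replicate 4 (−2.23) and Ccnb1 without replicate 3 (−3.03). Bub1 also ended without the 4 libraries that stand apart (−2.59), none of which is from blood. Platelet genes summed to 4602 to 7114 CPM in blood and erythroblast genes to 4.88 to 11.1, against 3445 or more in marrow.

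Nearly the whole set was low in 4 quiet organs. In kidney 35 genes fell (background 9.52%), in brain 34 (background 16.1%), in heart 33 (background 12.9%) and in liver 32 (background 16.7%), with 20 or 21 of the 24 mitotic genes and 11 to 14 of the 16 S phase genes in each. Ttk and Kif20a each have no read in 2 tissues. The fit gave an adjusted p of 1 to Ttk in all 4 of these organs and to Kif20a in kidney, heart and liver. Of 5450 tested genes without a read in at least 1 tissue, 1413 were called lower in any tissue, while all 5450 were called higher in some tissue. The part of the missing reads in these 2 genes was not tested. Ttk had no read in liver or lung, which at 3 counts allows at most 0.524 and 0.577 CPM, at least 14.5-fold and 13.1-fold below the mean of the other tissues. Kif20a had none in liver or colon (limits 0.524 and 0.684 CPM, at least 3.42-fold and 2.62-fold below).

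In brain the largest falls were in Cdk1 at 0.28, 0.284, 0.629 and 0 CPM (log2 fold change −4.96 ± 0.47, adjusted p = 2.3e-14), Ube2c at 1.12, 0, 1.26 and 0.987 (−4.48 ± 0.37, adjusted p = 2.1e-16) and Top2a at 2.24, 1.42, 5.97 and 1.97 (−3.83 ± 0.33), and Aurkb had 3 reads in all. In heart they were in Kif11 at 0, 0.514, 1.55 and 0 CPM (−3.84 ± 0.58), Top2a (−3.76 ± 0.37), Bub1b (−3.70 ± 0.40) and Birc5 (−3.65 ± 0.47). In kidney they were in Ccne1 and Aurkb, with 3 reads each, in Top2a at 2.39, 1.75, 4.4 and 3.74 CPM (−3.73 ± 0.33, adjusted p = 4.9e-15) and in Kif11 (−3.61 ± 0.49). In liver they were in Ccnb1 with 1 read and in Tpx2, Cdc20 and Plk1 with 2 reads each (adjusted p = 8.5e-07, 4.0e-08, 2.0e-08 and 1.2e-07). The median S phase gene kept more of its marrow level than the median mitotic gene. It stood at 3.08% against 0.960% in brain, 3.50% against 0.753% in heart, 5.80% against 0.740% in kidney and 3.68% against 0.445% in liver. Single S phase genes differed. Pcna stood at 8.88 to 21.5 CPM over the 4 organs and Rrm1 at 8.07 to 19.5, but Cdc6 had 1 read in liver and Ccne1 3 reads in kidney.

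In lung 22 genes fell (background 12.3%), of which 16 were mitotic. The 4 largest falls were those of the 4 longest genes, Cenpe at 1.62, 0, 0.662 and 1.52 CPM (log2 fold change −4.11 ± 0.49, adjusted p = 1.2e-10), Cenpf at 2.44, 0.871, 0.662 and 0.761 (−3.96 ± 0.48, adjusted p = 1.9e-10), Top2a (−3.47 ± 0.39) and Mki67 (−3.11 ± 0.33). Over all tested genes with a length the Spearman correlation of length with change in lung was −0.04, and over the members it was −0.23. The licensing and helicase genes had a median of −0.69 and the 3 checkpoint genes one of −0.60. E2f1 stood at 12.2, 6.96, 10.6 and 15.2 CPM, the highest tissue mean after marrow and thymus, with a log2 fold change of 0.86 ± 0.28, below the size needed for a call.

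Within the quiet organs single genes left the common pattern. In heart Cenpa stood at 76.3, 66.3, 59.8 and 62 CPM (log2 fold change 1.36 ± 0.11, adjusted p = 4.0e-16) and Cenpf at 35.4, 41.1, 44.3 and 50.1 (1.56 ± 0.18, adjusted p = 3.2e-11), the 2 heart genes called higher (background 20.7%). For Cenpa only marrow and thymus were higher by mean, and blood, at 52.8, 59.5, 62.1 and 61.9, overlapped heart. The calls rest on the scaling: with library totals alone the median of all genes in heart moved from −0.12 to −1.38, Cenpa stood at −0.00 with its sign turned and Cenpf at 0.20. Both values still lay above that median. Mitochondrial ribosomal RNA took 38.4% to 40.6% of heart counts, and its part in this was not tested. The other centromere and passenger genes fell in heart, Cenpe to 1.01, 1.54, 1.03 and 2.82 CPM and Birc5 to 1.01, 1.03, 1.03 and 1.69.

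In liver Tk1 stood at 47.8, 37.7, 25.9 and 31.6 CPM (log2 fold change 1.08 ± 0.15, adjusted p = 4.8e-09), the 1 liver gene called higher (background 18.4%) and a level overlapping that of thymus. The call ended without library 1 of every tissue (0.93) and with library totals alone (0.02, with the median of all genes at −1.23 in place of −0.25). Tk1, at chr11:117815526-117826092 on the minus strand of mm10, shares exon bases at its 5′ end with Afmid on the other strand. Afmid was highest in liver, at 12 ± 1.96 CPM (SD, n = 4) against means of up to 2.95 elsewhere, and as the strand setting of the counting is not given, reads of the pair cannot be told apart there. Tyms, the other source of thymidylate, kept 25.9, 19.2, 25 and 23.2 CPM in kidney and 13.5, 12.3, 16.6 and 12.5 in liver and was not called in either.

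In brain Ccne1 stood at 15.1, 16.8, 9.11 and 12.2 CPM (log2 fold change 1.77 ± 0.19, adjusted p = 1.7e-12), next after marrow and thymus by mean and overlapping thymus above it and inguinal lymph node below it, and it was the 1 brain gene called higher (background 27.7%). Ccne2 stood at 7.28, 8.82, 3.77 and 5.92 CPM there and E2f1 at 6.72, 10.5, 4.4 and 2.3, and neither was called, while all 8 licensing and helicase genes and all 5 of nucleotide supply fell. In kidney Ccne1 had 3 reads. Neural progenitor genes summed to 237 to 259 CPM in brain and 4 of 6 were highest there, and their part was not tested.

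**Figure D5:**
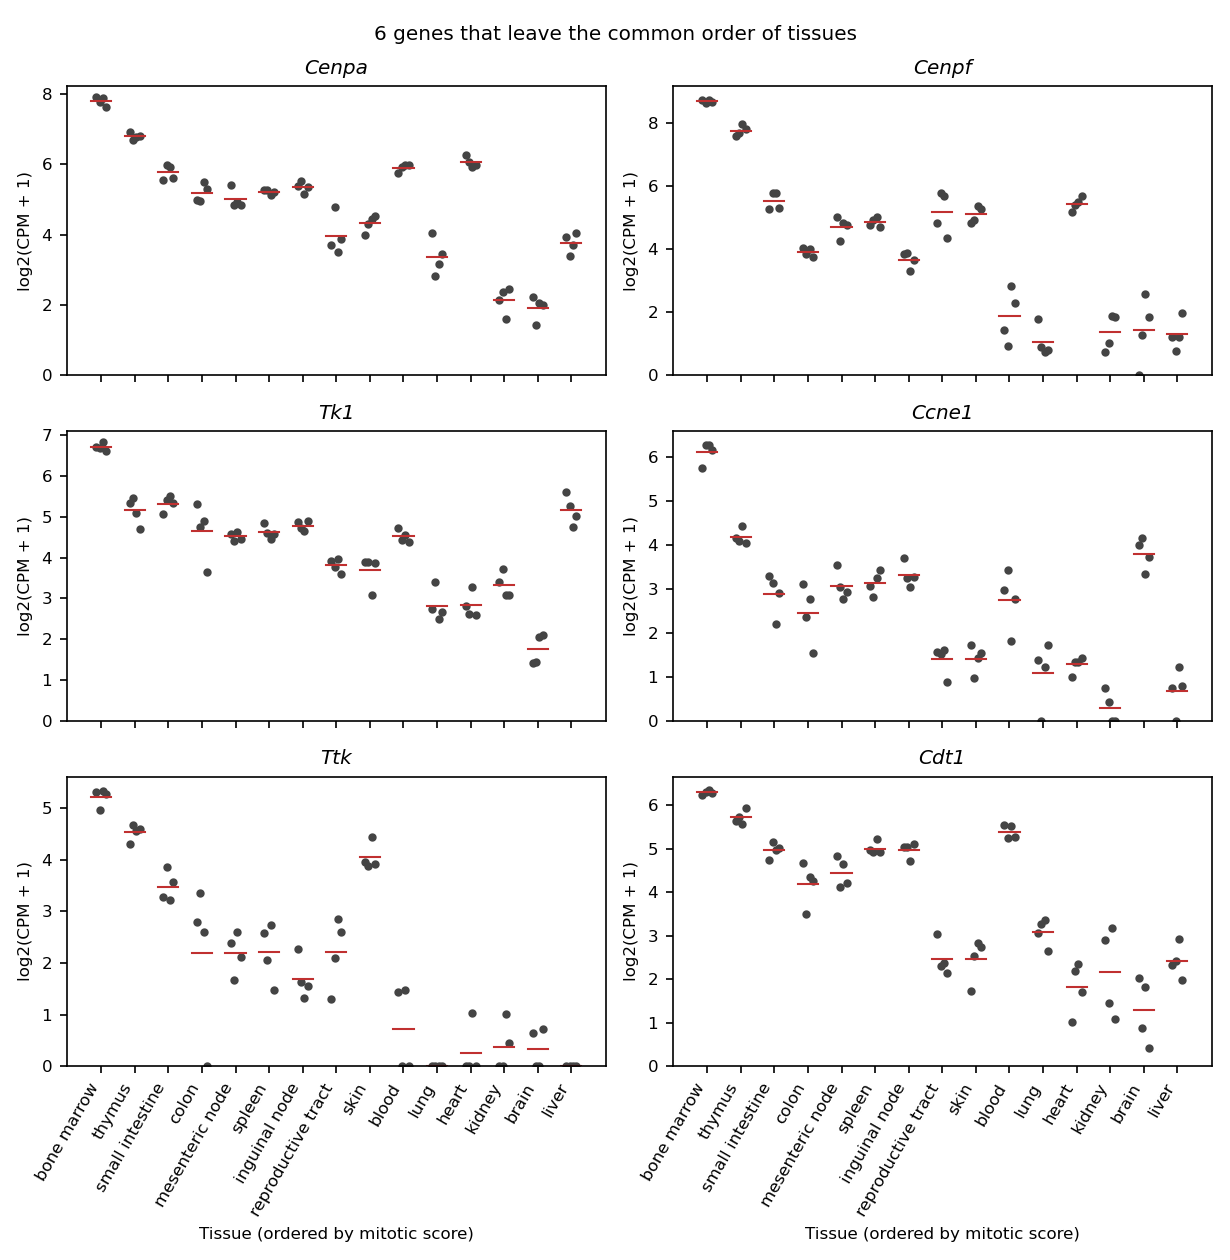
Level as log2(CPM + 1) of 6 genes that leave the common order, Cenpa, Cenpf, Tk1, Ccne1, Ttk and Cdt1, with 1 point for each library tissues on the x axis and a line at the mean of 4. Heart stands high for Cenpa and Cenpf, liver for Tk1, brain for Ccne1, skin for Ttk and blood for Cdt1.

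Measured over all 15 tissues, the members least like the mean of their own phase list were Kif20a (Pearson r = 0.72), Cenpa (0.74), Ccne2 (0.77), Tk1 (0.77) and Ccne1 (0.78). Kif20a has the fewest reads of the members, at 7.42, 6.05, 8.97 and 8.47 CPM even in marrow, so its profile rests on few reads, and it shares exon bases at its 3′ end with Cdc23 on the other strand. In all, 10 of the 40 share exon bases with another gene, among them Mcm7 (with Cops6 and Ap4m1), Ccna2 (Exosc9), Cdc20 (Elovl1) and Ube2c (Tnnc2), each on the other strand. Cenpa, Ccne1, Ttk, Tyms and Cdt1 do not. Tyms followed the mitotic mean (0.85) more closely than that of the other S phase genes (0.79), and Kif20a and Cenpa followed the S phase mean (0.84 and 0.79) more closely than the mitotic one. So did Kif23 (0.94 against 0.93) and Aurkb (0.96 against 0.95), by less.

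Outside the 40, the tested genes whose profile lay closest to the mitotic mean were Neil3, a DNA glycosylase (r = 0.993 over 15 tissue means), Gtse1, Shcbp1, Kif2c, Prr11, Cdc25c, Hmmr, Kif18b, Cdca8 and Uhrf1, and 75 genes, members included, passed 0.95. Uhrf1, which carries DNA methylation through replication, is the 1 of these 10 with its highest mean in thymus. Closest to the S phase mean were Fbxo5, the inhibitor of the anaphase-promoting complex (0.988), Ticrr, Dscc1, Dbf4, Lockd, Bard1, Nsl1, Dlgap5, Hmgb2 and Clspn, with 57 genes past 0.95.

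Other genes of the pathway were followed as 4 lists, counted in the same fits. Of 31 further replication genes tested, 31 rose in bone marrow, 30 in thymus, 13 in small intestine and 4 in colon, and of 36 further mitosis genes 35, 34, 28 and 13 did. Of all genes tested 17.6%, 18.9%, 19.9% and 17.7% rose in these organs, so the 4 replication genes in colon lie below the background. In colon the mitosis list had a median of 0.74 and the replication list −0.04, beside −0.15 over all genes. Against most of their list, the condensin genes Smc4 (−2.14 ± 0.13) and Smc2 (−1.67 ± 0.17), the spindle midzone gene Prc1 (−2.74 ± 0.56) and the motor Kif18a fell in colon. All of these also fell in lung (−2.47 ± 0.13, −2.36 ± 0.18, −3.40 ± 0.58 and −1.20 ± 0.44), which shares the unlike library make-up of colon. They fell in liver as well (−1.23 ± 0.11, −1.18 ± 0.15, −2.54 ± 0.49 and −1.72 ± 0.46). The part of the library make-up was not tested. In blood 14 of the 36 mitosis genes fell and 4 rose, among them Cdc25b, the phosphatase that activates Cdk1, at 86.2 ± 7.74 CPM (2.05 ± 0.09), and of the replication genes 5 fell and Pold1, a polymerase subunit, rose (1.96 ± 0.12). Against backgrounds of 17.8% falling and 18.1% rising in blood, the 5 replication genes that fell and both counts of rising genes are below the background.

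Of all genes tested 9.52% to 16.7% fell in the quiet organs. In brain 27.7% rose, in heart 20.7%, in liver 18.4% and in kidney 4043 of 18562. Of the 36 mitosis genes 26 to 32 fell, and 1 or 2 rose in each organ, a share below the background. In heart these were Pttg1, securin, at 215 ± 19.2 CPM (SD, n = 4), above all libraries of other tissues (2.14 ± 0.08, adjusted p = 2.5e-31), and Sgo2a, a guardian of centromere cohesion (2.48 ± 0.24). Heart was also high in Gmnn, which blocks licensing through Cdt1 (1.94 ± 0.11), and in E2f6, a repressive E2F (2.58 ± 0.11). In kidney the kinetochore gene Spc25 rose (2.22 ± 0.13), in liver Spc24 did (1.25 ± 0.23), and in brain Anln, or anillin, did (2.13 ± 0.16). Of the replication genes Mcm10, which helps to start the helicase, rose in liver (34.2 ± 9.38 CPM, 3.12 ± 0.19). These folds depend on the scaling. With library totals alone the median of all genes moved from −0.12 to −1.38 in heart and from −0.25 to −1.23 in liver. The calls of these pathway genes under that scaling are not given here.

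The G1 cyclins, their kinases and the RB family did not move as one. Of 16 genes, 2 fell in bone marrow, where 2997 of the 18562 genes tested did, so these falls lie below the background. A further 10 rose there (background 17.6%), led by E2f2 (5.15 ± 0.10) and the atypical factors E2f8 (4.79 ± 0.14) and E2f7 (3.73 ± 0.21). Ccnd1, cyclin D1, ran against them, falling in marrow (−1.35 ± 0.19), thymus (−1.46 ± 0.18), colon (−2.24 ± 0.27), lung and blood and rising in both lymph nodes and in kidney to 109 ± 13.4 CPM, above all libraries of other tissues (2.26 ± 0.11, adjusted p = 6.8e-26). Between the parts of the gut it was the widest difference of the list, 2.71 ± 0.22 from colon to small intestine. Ccnd3 rose in blood (2.06 ± 0.10) and fell in small intestine (−1.27 ± 0.16), where Ccnd2 rose to 403 ± 76.3 CPM (1.40 ± 0.09).

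The CDK inhibitors, brakes of the cycle, rose in some tissues beside the division genes and in others without them. Cdkn2b, p15, was highest in small intestine at 67.9 ± 4.84 CPM (log2 fold change 4.91 ± 0.17, adjusted p = 4.4e-33) and also rose in colon (3.90 ± 0.24), lung, skin and mesenteric lymph node. Cdkn1a, p21, was highest in skin at 499 ± 25.4 CPM (3.14 ± 0.16, adjusted p = 8.1e-26) and also rose in small intestine (2.56 ± 0.17), colon (2.10 ± 0.19), lung and heart, and it fell in marrow (−2.62 ± 0.31), spleen (−2.09 ± 0.28), thymus and blood. Cdkn2d, p19, rose with the division genes in marrow (2.98 ± 0.08) and thymus (2.01 ± 0.09), as well as in blood and inguinal lymph node, and fell in liver (−2.51 ± 0.20), kidney and the female reproductive tract. Cdkn1c, p57, rose in kidney (2.10 ± 0.14), heart (2.06 ± 0.15) and lung (2.04 ± 0.17), and in skin and the female reproductive tract, and fell in blood (−4.07 ± 0.38), marrow (−2.06 ± 0.27) and spleen. In mixtures of cells these values do not show whether a brake and a division gene are read in the same cells.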

How the data were processed

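RNA from 60 tissue libraries was captured at the 3′ end with barcoded oligo(dT) after heat fragmentation, from 100 ng of RNA, per the labels' protocols, and no molecular identifiers are described. The authors deposited whole-number read counts per gene for the 60 libraries in 1 combined table. The submitters' processing notes name FastQC, STAR and featureCounts and the build mm10, with no versions, and give no strand setting. Gene types, neighbours and lengths come from GENCODE M21, which matched 54409 of 54532 genes.

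Samples were grouped by the tissue label. Counts were tested with edgeR 4.0.16 in R 4.3.3 (quasi-likelihood F test, TMM scaling, Benjamini-Hochberg adjustment over all tested genes) after a filter by tissue at a minimum count of 10, which kept 18562 genes. Each tissue was set against the equally weighted log-scale mean of the other 14 in 1 fit of 60 libraries, and 5 pairs of tissues were fitted on their own 8 libraries. Calls needed an adjusted p under 0.05 and a log2 fold change larger than 1 in size. The SE is the fold change divided by the square root of F. CPM values are edgeR's, scaled by TMM. Alternatives were other scalings, DESeq2 1.42.0, no filter, removal of mitochondrial genes and Malat1, other pseudocounts, a replicate block, adjusted p alone and leaving out each replicate number from every tissue in turn. Depth limits single values: the libraries held 353605 to 5211133 counts, and limits for genes without reads (3 counts) cover counting error only.

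The members, the gene lists and the tests were chosen with earlier results of these data known. Members described in full are the leader of each role by level, the members called with the largest changes in each comparison and those least like their list. Pathway genes named are those called with the largest changes in their list. A few further members and pathway genes, such as Pcna, Rrm2, Cdkn1c and Gmnn, were chosen after their values were seen.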

Additional observations from a re-analysis of the deposited data

Results flagged for a closer look

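In 14 of 225 groups of 4 libraries, 1 library lay so far from the other 3 that its gap to them, as a share of the range, passed Dixon's critical value. Chance alone flags about 1 group in 20.

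The mitotic score of colon library 4 was 0.485, against 1.04 for the next. Mki67 stood at 28.7 CPM in blood library 3, where the next library had 16.3, and at 6.76 CPM in heart library 4. Cenpa stood at 41.6 CPM in mesenteric lymph node library 1. E2f1 was low in inguinal lymph node library 3, at 5.7 CPM, and in thymus library 2, at 16.8 CPM. Ccna2 stood at 20.8 CPM in spleen library 3 and Rrm1 at 74.8 CPM in female reproductive tract library 3, the library of fewest counts. Mcm7 stood at 19.3 CPM and Ccne2 at 2.71 CPM in kidney library 3. Bub1b stood at 97.5 CPM in thymus library 3 and Kif23 at 139 CPM in bone marrow library 2, below the other 3. Kif20a stood at 0 CPM in heart library 4, where the other libraries had about 1 read each, and Tk1 at 7.49 CPM in skin library 3.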

How the results depend on the processing

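With library totals alone in place of TMM, 19 of 70 counts and places moved. Higher calls became 13 in the female reproductive tract, 14 in inguinal lymph node, 26 in mesenteric lymph node, 22 in spleen, 1 in lung and 0 in heart and liver, and lower calls 0 in the female reproductive tract, 3 in thymus against bone marrow and 7 in skin against the female reproductive tract. Of all 18562 genes 6051, 4835, 4625, 4865, 4074, 1499 and 1811 rose in these tissues in that order. Lower calls of all genes were 411 of 18562, 1259 of 12183 and 2325 of 12733. By S phase genes brain took place 12, heart 15, inguinal node 4, kidney 13, small intestine 6 and spleen 3, and by mitotic genes brain 12, heart 14 and inguinal node 8. Cenpa in heart turned to −0.00. With adjusted p alone, higher calls became 6 in blood, 10 in the female reproductive tract, 24 in inguinal node, 31 in mesenteric node, 31 in spleen, 6 in skin, 1 in kidney, 1 in lung, 15 in small intestine against colon and 8 in spleen against inguinal node. Lower calls became 6 in the female reproductive tract, 10 in skin, 1 in inguinal node, 39 in thymus against bone marrow and 3 in skin against the female reproductive tract. Shares of all genes called with adjusted p alone are not given here. DESeq2 gave 2 lower in colon, 7 higher in the female reproductive tract and 3 lower in skin against it. Of all genes, 3218 of 18562, 4334 of 18562 and 1796 of 12733 were so called. Removing mitochondrial genes and Malat1 gave 0 lower in skin against the female reproductive tract, where 1762 of 12804 genes were. DESeq2 size factors moved S phase places of brain to 14, heart to 15 and inguinal node to 6, and mitotic places of brain to 13, inguinal node to 8 and kidney to 14. The median over members moved S phase places of heart to 13, inguinal node to 4 and spleen to 5, and mitotic places of brain to 13, heart to 14, kidney to 12 and spleen to 5. A pseudocount of 5 moved mitotic places of brain to 15, liver to 14 and inguinal node to 8. Members at 5 CPM in 8 tissues moved inguinal node to 4 and spleen to 5. The cause was not tested.

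Chosen after seeing the data, leaving out the colon and lung libraries gave 1 lower in inguinal node and 1 higher in skin, and leaving out the 4 libraries that stand apart gave 1 higher in lung and mitotic place 8 for inguinal node. Of all genes, 1363 and 3442 of 18398 and 3541 of 19507 were so called.

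Leaving out each replicate number in turn gave 4 to 11 higher in the female reproductive tract, 4 to 7 in inguinal node, 0 to 1 in liver, 0 to 1 in lung, 3 to 5 in small intestine against colon and 3 to 5 in spleen against inguinal node, and 0 to 1 lower in inguinal node and 0 to 2 in skin against the female reproductive tract. Of 18610 to 18745 genes, 4183 to 4561 rose in the female reproductive tract and 2996 to 3148 in inguinal node in these fits. S phase places ranged from 7 to 8 for blood and for colon, 14 to 15 for brain and for heart, 4 to 6 for inguinal node, 9 to 10 for skin and 4 to 5 for spleen, and mitotic places from 7 to 9 for inguinal node, 8 to 9 for skin and 5 to 6 for spleen.

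With the replicate number as a block, 3 genes were lower in skin against the female reproductive tract (1684 of all 12733 genes) and no other count moved past 1.5 times. Labels do not say that a number marks an animal. Over 11285 genes, deviations of libraries with the same number correlated at 0.021 on average and those with different numbers at −0.0067, and 44 of 60 libraries correlated best with their own number. Of 85 single-gene results, 84 or 85 were unmoved under DESeq2, its size factors, the block, no filter and removal of mitochondrial genes. With library totals alone 78 were unmoved, 6 were no longer called and 1 reversed. Without replicate 1 or 3, 81 were unmoved and 4 no longer called, and without replicate 2 or 4, or the 4 libraries that stand apart, 83 and 2. Without the colon and lung libraries 73 of 74 were unmoved and 1 was no longer called.

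At 208 to 294 reads for the 40 genes in a liver library and 239 to 416 in lung, single values of a few CPM in these organs rest on few reads.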
